A study of Saccharomyces cerevisiae with 1 sample.

Results

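Domain I is the 5′ region of the 25S rRNA, the long RNA of the large ribosomal subunit of yeast, and was taken here as nucleotides 1 to 650 of the 3396 nucleotides in the deposited pileup (about 19.1% of the molecule). The members were set by position, and no measured value enters the rule. The region corresponds to the minus strand of RDN25-1, chrXII:454532-455181 in the R64 build, and RefSeq annotates the gene as rRNA. The table lists 2 copies of the gene, and reads of the repeats are not told apart. The data come from 1 CRAC library of BY4742, a Saccharomyces cerevisiae strain that carries no tagged protein, grown to an OD of 0.6 in minimal medium with glucose and without tryptophan. CRAC links proteins to RNA with UV light in living cells and sequences the RNA fragments that survive purification through a tag. With no tag in the cell, the fragments recovered here are the background of the method. The control has no replicate, so every value stands without a standard deviation or a p-value, and comparisons with other domains are descriptions that were not tested.

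Domain I is among the parts of the large subunit that compact early as pre-60S particles form, and together with the 5.8S rRNA it builds the solvent-side region around the polypeptide exit tunnel. The 5.8S rRNA pairs with several stretches of domain I, and the 3′ end of 5.8S pairs with the first nucleotides of 25S next to the spacer ITS2. A hit is counted at each nucleotide that a read covers. The header of the pileup labels hits as per 100000 reads, and whether the values were rescaled is not stated. A nucleotide at which an amino acid stayed attached is often misread (a substitution) or skipped (a deletion) by reverse transcriptase, and substitutions and deletions together are called changes below.

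The sequences that carry the results are those of the 2 highest peaks of hits, the 3 short stretches with the most changes per hit, and the only stretch with no hit. T stands for U, as in the deposited pileup. Capitals mark nucleotides changed in at least 2% of at least 100 hits, except in the last sequence, where they mark the nucleotides without a hit.
Nucleotides 440 to 484, chrXII:454698-454742, highest peak: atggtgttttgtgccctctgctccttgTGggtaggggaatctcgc
Nucleotides 357 to 421, chrXII:454761-454825, second peak: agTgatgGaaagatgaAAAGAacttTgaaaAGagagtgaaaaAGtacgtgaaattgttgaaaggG
Nucleotides 289 to 319, chrXII:454863-454893, around G304: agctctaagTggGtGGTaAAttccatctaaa
Nucleotides 312 to 342, chrXII:454840-454870, around A327: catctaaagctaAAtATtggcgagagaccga
Nucleotides 543 to 573, chrXII:454609-454639, around U558: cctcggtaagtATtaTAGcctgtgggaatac
Nucleotides 616 to 650, chrXII:454532-454566, around the uncovered stretch: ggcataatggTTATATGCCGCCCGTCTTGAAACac

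Domain I had few hits and no tall peak. It received 142658 summed hits, 2.72% of all hits on the 25S rRNA, which was the lowest share of the 6 domains. Its median was 174 hits per nucleotide, close to the 25S median of 170, with quartiles at 99 and 287 hits. The median was the third lowest of the 6, after domain IV (78.5 hits) and domain II (118.5 hits). Its highest nucleotide had 807 hits, whereas the highest of each other domain lay between 1181 hits in domain III and 57549 in domain V. The highest nucleotide was 4.64 times the median of domain I, against 2.67 times in domain III and 254 times in domain V. Over the rest of the 25S rRNA the median was 167 hits and the mean 1861 hits, while the mean of domain I was 219 hits. The median of domain I over that of the rest was thus 1.04, and the mean over the mean was 0.118, or 0.472 without the 2 highest peaks of the 25S rRNA. Without these peaks (nucleotides 2138 to 2216 and 2513 to 2613), domain I held 10.7% of the remaining hits.

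**Figure D1:**
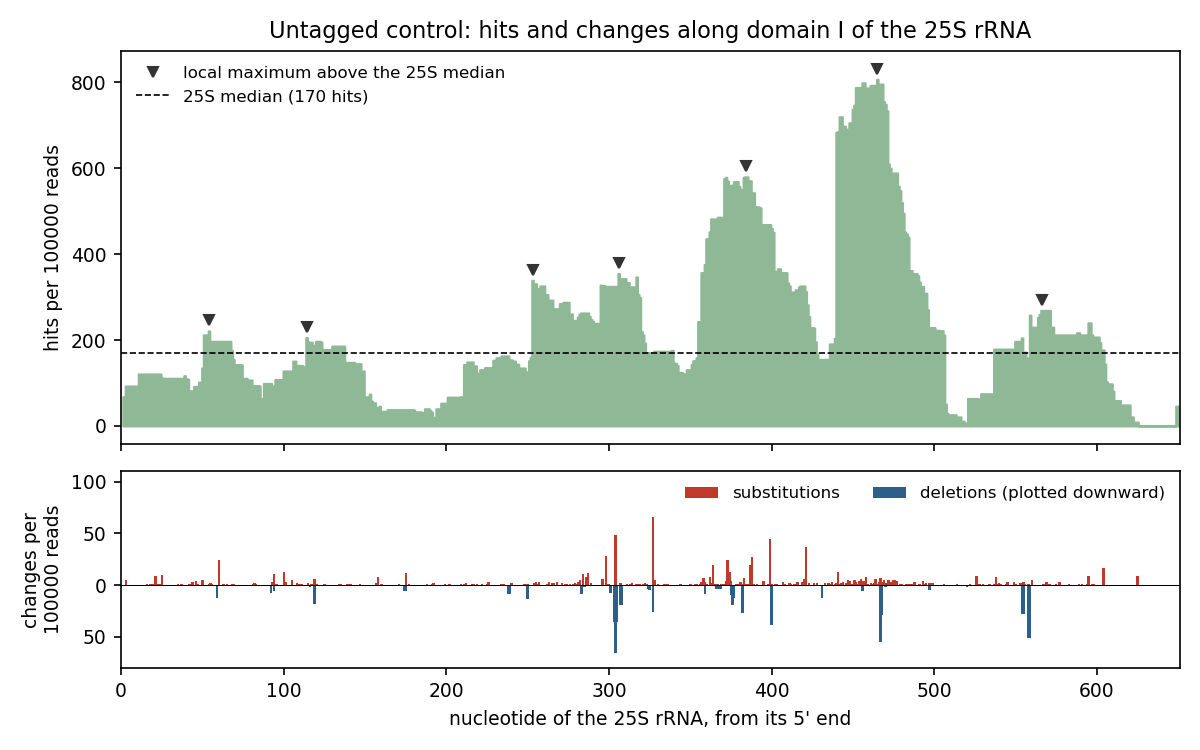
Hits (top) and substitutions and deletions (bottom, deletions plotted downward) at each of the 650 nucleotides of domain I in the untagged control. Values are labelled per 100000 reads, after the header. Triangles mark the 7 local maxima above the 25S median of 170 hits (dashed line), the highest of which had 807 hits at nucleotide 465.

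Hits in domain I rose to a maximum between nucleotides 440 and 484 and were low at both ends of the domain. Local maxima had to be at least 50 nucleotides apart, and 7 of them were above the 25S median. The highest was nucleotide 465 with 807 hits, 4.75 times the 25S median and above 81.8% of all 25S nucleotides. Hits stayed at 50% of this value or more over the 45 nucleotides from 440 to 484, which held 21.9% of the hits of domain I on 6.92% of its length. This stretch contains nucleotide 467, where the study placed a cross-linking site of HTP-tagged Dbp6, a DEAD-box helicase of early pre-60S particles. The study defined its major sites by a set fold of hits above this same untagged control. It took point mutations or deletions in its peaks as further support. In the control, U467 was itself deleted in 55 of 796 hits. The tagged sample was not analysed here, so the peak described is that of the control alone. The second maximum had 580 hits at nucleotide 384, and hits stayed at 50% of it or more from nucleotide 357 to 421. Between these peaks hits fell to 149. Nucleotides 351 to 500, 23.1% of the domain, together held 49.2% of its hits.

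The other maxima were lower. Toward the middle of the domain, nucleotide 306 had 355 hits and nucleotide 253 had 339. Both lay in one broad lower peak from nucleotide 253 to 322. Downstream of the main peaks, nucleotide 566 had 269 hits. In the 5′ part, nucleotide 54 had 221 hits and nucleotide 114 had 206, only 1.30 and 1.21 times the 25S median. The first nucleotide of the 25S rRNA had 68 hits, and hits rose to 93 at nucleotide 3 and to 121 at nucleotide 11. The neighbouring 5.8S rRNA and ITS2 were not analysed here, so reads that cross the 5′ end of 25S cannot be told apart from reads that begin there.

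Hits fell below 100 in 6 stretches. The longest had 61 nucleotides, from 150 to 210, with a median of 38 hits and a minimum of 20. Another, from nucleotide 507 to 536, lay downstream of the highest peak and reached 2 hits at its lowest. The domain ended in a stretch of 44 nucleotides, from 607 to 650, in which hits ran down from 98 to 0. Of these, the 23 nucleotides from 626 to 648 had no hit at all, with 9 hits on the nucleotide before and 46 on the nucleotide after. This was the longest uncovered stretch of the 25S rRNA, whose other 2 had 12 and 4 nucleotides. It held 23 of the 39 uncovered nucleotides of the molecule, or 59.0%. The uncovered stretch contains A645, known as the site of the m1A base methylation made by Rrp8, and ends just before A649, known as a ribose-methylated nucleotide guided by the box C/D snoRNA U18. A645 had no hit and A649 had 46. Neither therefore reached the 100 hits required for a share of changed hits. The GC content of the uncovered stretch was 47.8%, and that of domain I as a whole was 47.1%. Whether the methylation bears on the missing hits was not tested.

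**Figure D2:**
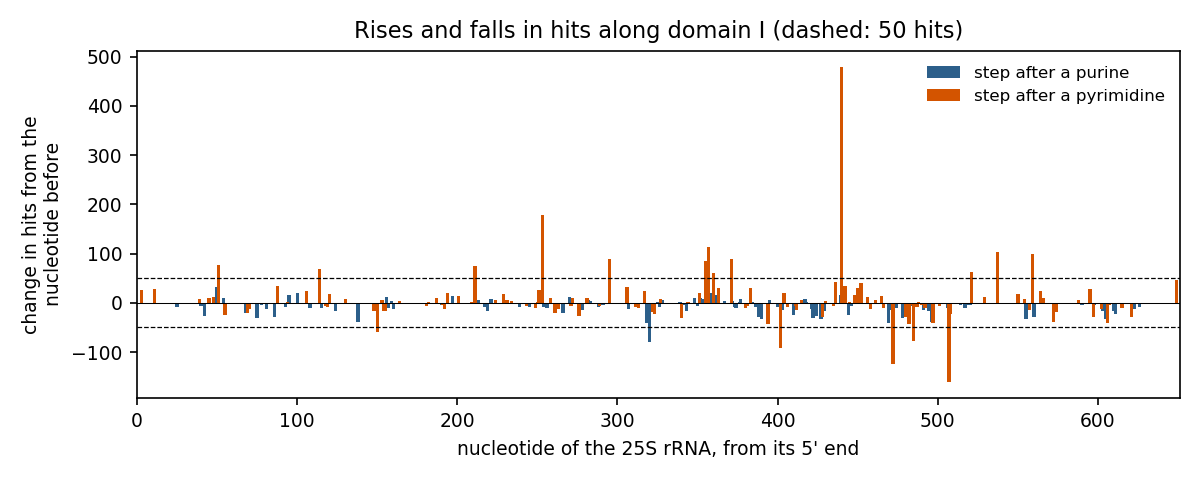
Change in hits from each nucleotide to the next along domain I, coloured by whether the nucleotide before the step is a purine or a pyrimidine. Dashed lines mark 50 hits in either direction, and all 13 rises past the upper line follow a pyrimidine.

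Coverage was level between most neighbouring nucleotides, and few of its steps were large. Hits were identical to those of the nucleotide before at 385 of 649 positions (59.3%), and 19 steps had at least 50 hits. A rise gives a net gain of read starts over read ends at that position. The largest took hits from 204 at nucleotide 439 to 684 at nucleotide 440. It set the 5′ edge of the highest peak, with 70.2% of the hits at nucleotide 440 gained in that step. The next took hits from 160 to 339 at nucleotide 253, the 5′ edge of the broad lower peak described above. Then came nucleotide 357 with a rise of 114, nucleotide 537 with 104 and nucleotide 559 with 100. These 5 largest rises each began on an A. The largest fall, from 212 to 51 hits, came at nucleotide 507, after the last of 67 nucleotides counted from the largest rise. Falls of 124 and 78 hits came after 32 and 45 nucleotides from the same rise. The pileup does not link read starts to read ends, so these distances are not lengths of reads. The other 2 of the 5 largest falls lay upstream. In the second peak hits fell from 451 to 360 at nucleotide 402. Near the end of the broad lower peak they fell from 299 to 220 at nucleotide 320.

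All 13 rises of at least 50 hits in domain I followed a pyrimidine, 10 of them a U and 3 a C, and 11 of the 13 led from a pyrimidine into an A. Pyrimidines precede 42.7% of the positions of domain I, and pyrimidine-A steps make up 9.40%. In the rest of the 25S rRNA, 97 of 130 such rises (74.6%) followed a pyrimidine. There 64 (49.2%) led from a pyrimidine into an A. Pyrimidines precede 45.6% of the positions of the rest, and pyrimidine-A steps make up 10.5%. With rises down to 20 hits included, 31 of 33 in domain I followed a pyrimidine, and 18 (54.5%) led from a pyrimidine into an A, against 43.9% in the rest. Of the 6 falls of at least 50 hits in domain I, 5 came after a pyrimidine, and in the rest 54.9% did. With falls down to 20 hits included, 22 of 45 in domain I did (48.9%), near the share of all positions. As background, nucleases of the RNase A type cut RNA after pyrimidines. RNA was partially digested with RNase in the protocol, and its part in these steps was not tested.

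Changes were few at most nucleotides of domain I and concentrated at some. Of its 650 nucleotides, 485 (74.6%) had at least 100 hits, and shares of changed hits are given for these alone. Over them, 1585 changes in 134732 hits gave 1.18% of hits changed, against 1.08% over the rest of the 25S rRNA and 0.974% over the rest without its 2 highest peaks. The median nucleotide was changed in 0.179% of hits, the lowest median of the 6 domains, whose others lay between 0.300% and 0.403%. Of the 485 nucleotides, 230 (47.4%) had no change at all, against 30.1% in the rest. Depth moved with this share, since the median over these nucleotides was 212 hits in domain I and 361 in the rest. Among nucleotides with 100 to under 200 hits the unchanged share was 58.6% in both. With 200 to under 400 hits it was 49.1% in domain I against 36.7% in the rest, and from 400 to under 1000 hits it was 14.9% against 14.0%. The median changed share also lay closer within bands. It was 0% in both in the first band, 0.276% against 0.333% in the second and 0.377% against 0.387% in the third.

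A nucleotide was called changed when at least 2% of its hits were. In domain I 53 of 485 nucleotides were called (10.9%), near the background of 12.2% over all 25S nucleotides with at least 100 hits. By substitutions alone 27 were called, or 5.57%, against a background of 7.46%. By deletions alone 28 were called, or 5.77%, against 4.93%. All 3 shares are near those of the molecule as a whole. The 53 called nucleotides held 73.9% of the changes of domain I, against 56.6% held by the 237 called nucleotides in the rest. Because they were picked by their changes, a high share follows in part from the rule. The value for the rest includes its 2 highest peaks and was not computed without them. Called nucleotides were often neighbours, with 35 of the 53 next to another, a count not made for the rest of the 25S rRNA. They were densest from nucleotide 301 to 350, with 10 of 50 nucleotides called, and from 351 to 400, with 12 of 50. None lay from nucleotide 151 to 200, where no nucleotide reached 100 hits.

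**Figure D3:**
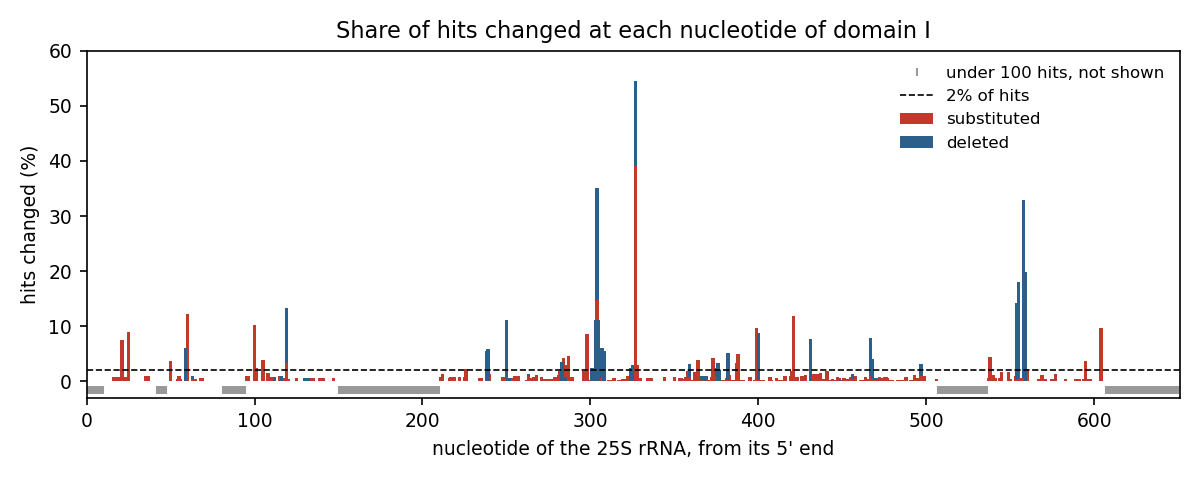
Percent of hits substituted or deleted at each nucleotide of domain I with at least 100 hits, stacked, with the 2% line dashed and grey marks under nucleotides with fewer hits. A327 stands highest with 54.4%, followed by G304 with 35.1% and U558 with 32.9%.

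A327 was the most often changed nucleotide of domain I. Of its 169 hits, 66 carried a substitution (39.1%) and 26 a deletion (15.4%), so that 54.4% were changed. Only 2 nucleotides elsewhere in the 25S, among those with 100 hits or more, had a higher share. Its 5′ neighbour was unchanged in 162 hits, and 2.87% of 174 hits were changed at its 3′ neighbour. The deposited values do not say which base replaced the A. A difference between rDNA copies and a misread base cannot be told apart in them.

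G304 had the largest number of changes in domain I, 114 in 325 hits (35.1%). It was deleted in 66 and substituted in 48, and ranked sixth in the 25S rRNA. Both neighbours were deleted in 36 hits, G303 in 11.1% and U305 in 11.1%, with no substitution at either. A307 and A308, 3 and 4 nucleotides further, were each deleted in 19 hits. This cluster lies within the broad lower peak, near the maximum at nucleotide 306.

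In the third cluster nearly all changes were deletions. U558 and A559 were each deleted in 51 hits, which was 32.3% of 158 hits and 19.8% of 258 hits. A554 and U555 were each deleted in 28 hits, 13.7% of 205 and 16.3% of 172. Each of these nucleotides had between 0 and 3 substitutions. A559 is also the first nucleotide of a rise of 100 hits. The share of deleted hits at U558 was the second highest in the 25S rRNA.

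**Figure D4:**
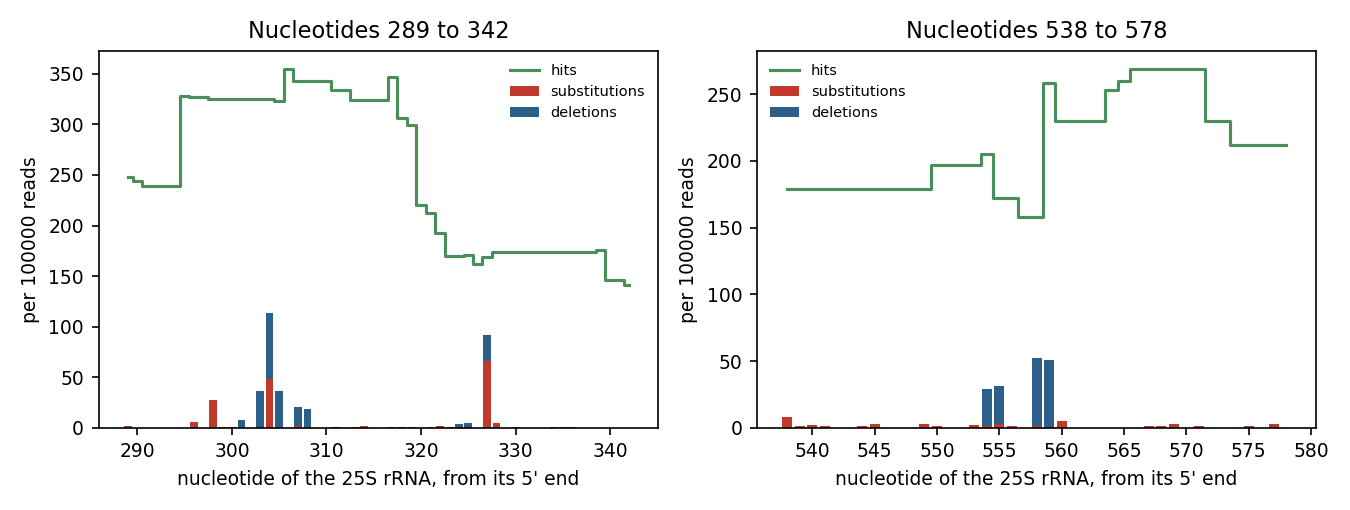
Hits (line), substitutions and deletions (stacked bars) around G304 and A327 (left, nucleotides 289 to 342) and around U558 (right, nucleotides 538 to 578). Values are labelled per 100000 reads, after the header. Deletion values are equal at G303 and U305 (36), which flank G304 (66), at A554 and U555 (28) and at U558 and A559 (51).

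Outside these clusters, changes in at least 10% of hits were seen at U119 (13.3% of 180 hits, mostly deletions), A60 (12.2% of 197), G421 (11.8% of 313), U250 (11.1% of 126) and A100 (10.2% of 128). At A60, G421 and A100 every change was a substitution. Below 10%, A399 was substituted in 45 of 469 hits (9.59%), while its 3′ neighbour G400 was deleted in 39 of 460 hits (8.48%). In the highest peak of hits, U467 was deleted in 55 of 796 hits and G468 in 29 of 796. These were the only 2 of the 45 nucleotides from 440 to 484 called changed. Between 357 and 421, 13 of 65 nucleotides were called, and the background over the 25S rRNA was 12.2%. The higher of the 2 main peaks thus had fewer called nucleotides.

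Deletions made up 44.2% of the changes of domain I, 701 of 1585. They are counted at each nucleotide, so a deletion that spans several nucleotides is counted at each of them. The share is therefore one of deleted nucleotides, and the number of separate deletions is not known. The share was 34.5% in the rest of the 25S rRNA and 27.3% in the rest without its 2 highest peaks. Among the other domains it was higher in domain IV (57.6%) and lower in the remaining 4, where it lay between 15.4% and 27.6%. In each of the 3 bands of depth given above, it was higher in domain I (42.9%, 49.7% and 39.6%) than in the rest (33.4%, 32.1% and 26.2%). Of the 53 called nucleotides, 28 had more deletions than substitutions (52.8%), against 88 of 237 (37.1%) in the rest. The deletion share of domain I rests in part on few nucleotides. Nucleotides 303 to 305, 558 to 559, 467 to 468 and 554 to 555 held 18.9%, 14.0%, 11.5% and 7.68% of the deletions over all its nucleotides. The deletion share without these runs was not computed.

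Most deletions were counted at nucleotides next to others with deletions. The pileup does not show which of them belong to the same read. With at least 5 deletions required at each nucleotide, they formed 23 runs, of which 8 had 2 or more nucleotides. Those 8 runs held 489 of the 729 deletions over all nucleotides of domain I (67.1%), and nucleotides 303 to 305 alone held 18.9%. In 17 of the 23 runs, a deletion of the whole run would give the same read if placed 1 nucleotide further 5′. There the base before the run equals its last base. Deletions differed within some runs, as with 55 at U467 and 29 at G468, so not every deletion in them spanned the whole run. For deletions of a whole run among these 17, at least these 2 placements cannot be told apart. Shifts of more than 1 nucleotide were not examined, so further placements may be equal. A327 and G400 were not among these 17.

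Changes differed by base. In domain I, 3 of 81 C residues with at least 100 hits were called changed (3.70%), against 17 of 142 A, 19 of 147 G (12.9%) and 14 of 115 U (12.2%). In the rest of the 25S rRNA the called shares were 11.3% for C, 8.80% for A, 12.1% for G and 17.9% for U. Pooled over hits, C was changed in 0.315% of hits in domain I and in 0.803% in the rest, and A in 1.37% and 0.707%. U was deleted in 0.753% of hits in domain I and in 0.765% in the rest. Base composition was alike, with 17.7% C in domain I and 19.9% in the rest. The values at A rest in part on A327.

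**Figure D5:**
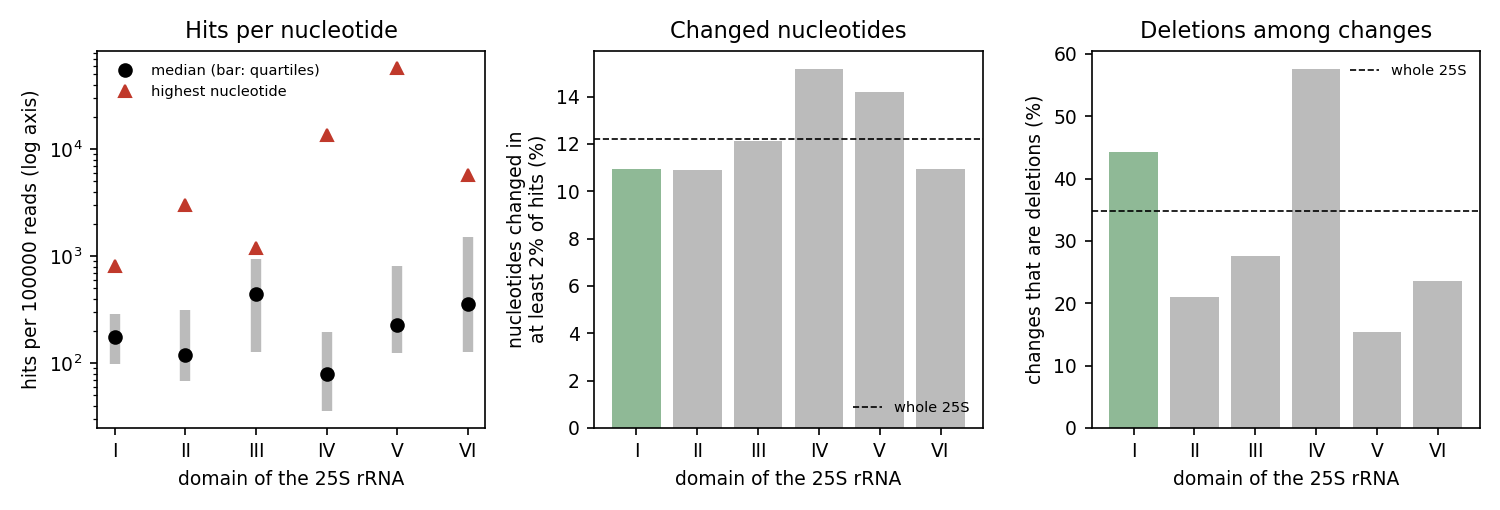
The 6 domains of the 25S rRNA compared. Left, median hits per nucleotide (points), quartiles (bars) and the highest nucleotide (triangles) on a log axis. Middle, percent of nucleotides with at least 100 hits that were changed in at least 2% of them. Right, percent of changes that were deletions. Domain I (green) has the lowest maximum, 807 hits, a called share of 10.9% and a deletion share of 44.2%.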

How the data were processed

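RNA of 1 untagged control library was sequenced on a MiSeq after 16 PCR cycles. The authors trimmed reads with Flexbar, aligned them with Novoalign to the R64 genome (the build and the aligner are also named in the submitters' processing notes) and made pileups with pyCRAC. Tool versions are not given in the sources used here. The authors deposited hits, substitutions and deletions per nucleotide as whole numbers, labelled as per 100000 reads. These deposited values, made by the authors' pileup tool, are treated as a score and not as read counts: the header gives a rate, the methods name a limit of the same size, and neither says whether values were rescaled. The depth is unknown, so no counting interval is given. The deposited tables of RNA classes and snoRNAs were not used.

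From the pileup, hits were summarised by domain, local maxima were taken from the highest downward at least 50 nucleotides apart, and changes per hit were computed at nucleotides with at least 100 hits. Coordinates were computed from RefSeq's R64 entry for RDN25-1, whose length equals that of the pileup. The text names the 7 maxima, the longest uncovered or low stretches, the 5 largest rises and falls, and the 12 nucleotides most changed per hit, with the 5 most substituted and most deleted. U467, G468, A399 and G400, the runs of deletions, the bases at rises and the bands of depth were added after the values were seen. The domain was set by position, but it and the lists were proposed with earlier results of these data known. Domain limits are approximate. Pairing with 5.8S was not computed. The functions were tested on simulated pileups. Software was matplotlib 3.10.9, pandas 2.3.3 and numpy 2.4.6 under Python 3.11.15.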

Additional observations from a re-analysis of the deposited data

How the results depend on the processing

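Depth is unknown and no interval could be set, so shares and medians are given wherever their 3 leading digits moved, and counts wherever they moved by over 1.5 times. Beyond what a setting does by construction, the cause was not tested. With the 3′ limit of the domain 25 nucleotides earlier or later, the share of 25S hits (2.72%) was 2.71% or 2.76%, and without the 2 highest peaks in the total it was 10.7%. The median of 174 hits was 178 or 169 with these limits and 178 without the first 25 nucleotides. The ratio of the median to that of the rest (1.04) was 1.21 without the 2 highest peaks and turned to 0.118 with means. With means and without the 2 highest peaks, a setting chosen after seeing the data, it was 0.472, still below 1. At least 25 nucleotides apart there were 15 local maxima in place of 7. The changed share of 1.18% was 1.19% over all nucleotides, 1.13% with at least 200 hits, 0.656% for substitutions and 0.520% for deletions. The median of 0.179% was 0 with at least 50 hits and 0.283% with at least 200. The 53 called nucleotides were 31 with at least 200 hits, 87 at a threshold of 1% and 27 at 5%. The most changed nucleotide was 304 with at least 200 hits, which leaves out nucleotide 327, and 558 by deletions. The deletion share of 44.2% was 42.9% over all nucleotides, 44.8% with at least 200 hits and 45.2% without the most changed nucleotide. That nucleotide, A327, had more substitutions (66) than deletions (26), and the runs with the most deletions were not left out. Chosen after seeing the data, rises of at least 20 and 10 hits followed a pyrimidine in 93.9% and 79.6% of cases, against 100% at 50, and the unchanged share of 47.4% was 58.6% between 100 and 200 hits and 37.6% from 200. The position of the highest maximum, 465, did not move with the distance between maxima. No paired analysis was possible because only 1 library was analysed, and no replicate could be left out.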
